A study of Homo sapiens with 12 samples.

Results

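RNA sequencing of 3 human lung cancer cell lines, all of the non-small cell type, was used to follow 10 genes of the NOTCH pathway after loss of NRF2. The genes were the receptors NOTCH1, NOTCH2 and NOTCH3, the ligands JAG1, JAG2 and DLL1, and the downstream targets HES1, HEY1, HEYL and NRARP. They were found by matching the Ensembl identifiers of 57815 genes to gene symbols, and all 10 were found. Of these, A549 and H2023 derive from lung adenocarcinoma and H460 from lung large cell carcinoma by their labels, which also give all 3 as positive for a KEAP1 mutation. KEAP1 is the protein that keeps the transcription factor NRF2 (gene NFE2L2) low, so the control cells of these lines carried activated NRF2 as well. In each line, cells given a control siRNA were compared with cells given an NRF2 siRNA, 48 h after transfection, with 2 libraries in each of the 6 groups. The NRF2 siRNA libraries of a line were made with different siRNAs, number 28 in 1 library and number 30 in the other, so the spread within that group includes the difference between siRNAs, and each siRNA had 1 library per line. The control libraries are described as biological duplicates. The A549 libraries were made after removal of ribosomal RNA and those of H2023 and H460 from polyA RNA, and the level of a gene in A549 is therefore not compared with that in the other lines.

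NOTCH receptors are membrane proteins that are cut and released by contact with a ligand on a neighbouring cell. JAG1, JAG2 and DLL1 are such ligands. Gamma-secretase frees the intracellular part of the receptor, which enters the nucleus, binds the DNA-binding protein RBPJ and switches on genes such as HES1, HEY1 and HEYL, which encode repressors of transcription, and NRARP, which encodes a feedback inhibitor of the pathway. NRF2 is best known for switching on genes of antioxidant defence, detoxification and NADPH supply through antioxidant response elements. The question asked of these data was whether the targets moved with NOTCH3 when NRF2 was knocked down.

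Values are given as FPKM, mapped fragments per kilobase of transcript after scaling to library size, and so are comparable between genes of different length. Counts were not used here, so the depth behind a value was not looked at. NFE2L2 itself was left at 15.4% and 22.7% of the control mean in A549, 6.49% and 5.70% in H2023, and 5.36% and 9.99% in H460, with siRNA 28 and siRNA 30, respectively. The epithelial keratins KRT8 and KRT18 were at 298 FPKM or more in every library. A further epithelial keratin, KRT19, was between 7.28 and 25.8 FPKM in A549 and at 99.6 FPKM or more in H2023 and H460. EPCAM and CDH1, markers of epithelial cells, were at most 1.19 and 1.17 FPKM in H460. The lung adenocarcinoma markers NKX2-1, SFTPB and SFTPC were under 1 FPKM in every library of all 3 lines, and NAPSA reached at most 1.25 FPKM. The leukocyte gene PTPRC was at most 0.470 FPKM. Among markers of other cell types, ACTA2 reached 27.5, CHGA 21.1 and SYP 7.08 FPKM in H460. RGS5 reached 11.9 and COL1A1 7.61 FPKM in H2023. The others with a match to a symbol reached at most 3.97 FPKM (PDGFRB in H460). Mitochondrial transcripts took 8.56% and 13.1% of the FPKM sum in H460 control libraries and 20.8% and 26.0% in H460 NRF2 siRNA libraries, against 11.97% and 18.1%, and 17.3% and 22.8%, in H2023. Scaling FPKM without them left 1 of the 10 genes called in A549, none in H2023 and 1 in H460 in limma, as without that scaling. Such bulk values cannot tell apart fewer cells that express a gene and less RNA of it per cell.

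The regulatory DNA of NOTCH3 and of the targets is shown first, since NRF2 and the NOTCH receptors act through short sequence elements. The intergenic stretch of 25923 bases between the start of NOTCH3 and the end of the neighbouring gene EPHX3 was searched on both strands for the core of the antioxidant response element, TGACNNNGC. It held 17 matches, and 1 pair of them overlapped. How many matches other stretches of this length hold was not counted. At the NRF2 binding site upstream of NOTCH3, the study describes more overlapping elements than this pair. That pair, TGACTCAGC on the minus strand and TGACTGTGC on the plus strand, lay 9.451 kb upstream of the NOTCH3 start and 16.473 kb from EPHX3, at chr19:15321217-15321312 with 40 bases on either side (build GRCh37, intergenic). It is printed on the minus strand, the strand of NOTCH3, with the overlapping pair in capitals.
NOTCH3 upstream region: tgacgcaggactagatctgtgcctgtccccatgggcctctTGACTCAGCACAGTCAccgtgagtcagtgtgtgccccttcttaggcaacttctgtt

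RBPJ binds the letters TGGGAA, most often within GTGGGAA. RefSeq promoters of build GRCh38.p14 were matched by symbol for 8 of the 10 genes, and the 250 bases before the start were searched on both strands. HES1 and HEYL each held 2 matches to TGGGAA, of which 1 lay within GTGGGAA, and the promoters of the receptors, of JAG1 and JAG2 and of NRARP held none. Among 35116 promoters of the same length, 20.8% held TGGGAA at least once and 2.90% at least 2 times, and 5.43% held GTGGGAA. TGACNNNGC was in none of the 8 promoters and in 10.9% of all promoters. The 120 bases before the start of HES1 (chr3:194136028-194136147, plus strand) hold both of its matches, and those before the start of HEYL (chr1:39639644-39639763, minus strand) hold 1 of its 2 matches. The matches are in capitals.
HES1 promoter: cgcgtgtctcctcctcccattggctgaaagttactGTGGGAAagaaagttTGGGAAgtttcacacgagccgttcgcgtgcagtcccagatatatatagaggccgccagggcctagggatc
HEYL promoter: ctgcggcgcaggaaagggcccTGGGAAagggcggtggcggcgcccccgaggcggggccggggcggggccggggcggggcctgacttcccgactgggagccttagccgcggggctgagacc

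Among the receptors, NOTCH3 fell strongly with NRF2 siRNA. NOTCH3 (ENSG00000074181.4, chromosome 19, 15269849 to 15311806, minus strand, GRCh37) was at 9.15 and 10.49 FPKM in the A549 control libraries, 2.23 FPKM with siRNA 28 and 2.41 FPKM with siRNA 30. H2023 had 134 and 116 FPKM in its control libraries, 38.7 FPKM with siRNA 28 and 19.7 FPKM with siRNA 30. H460 had 83.9 and 123 FPKM in its control libraries, 12.3 FPKM with siRNA 28 and 16.2 FPKM with siRNA 30. In each line both NRF2 siRNA libraries lay below both control libraries, and between 11.9% and 30.9% of the control mean was left in the 6 NRF2 siRNA libraries.

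On the log2(FPKM + 1) scale, NOTCH3 changed by -1.70 ± 0.16 in A549 (SE, adjusted p = 0.0161, limma with Benjamini-Hochberg adjustment over all genes tested), by -2.13 ± 0.33 in H2023 (adjusted p = 0.0695, limma) and by -2.76 ± 0.28 in H460 (adjusted p = 0.0118, limma). NOTCH3 thus passed the threshold of 0.05 in A549 and H460 but not in H2023, where it was also lower in both NRF2 siRNA libraries. No other of the 10 genes passed in any of the 3 lines taken singly, with all libraries fitted and no replicate block. It was 1 of 7 members tested in A549, where 0.554% of all genes tested were called lower and 0.122% higher, and 1 of 7 in H460, where these shares were 6.86% and 7.12%. In H460 these were 922 genes lower and 957 higher, and 584 and 1189 when FPKM was scaled without mitochondrial transcripts. In H2023 none of 9 members passed in limma, although 2 of them, NOTCH3 and NOTCH1, were under an unadjusted p of 0.05, as were 16.9% of all genes tested. Of all genes tested there, 0.583% were called lower and 0.327% higher. The call depended on the fit. In H2023 the adjusted p in limma was 0.00338 when all 12 libraries were fitted together and 0.00558 with a replicate block, for pairs that the labels do not give. With no trend it was 0.0888, and with no filter on low values 0.298. It was 0.355 and 0.272 without the first or the second control library, and 5.72e-05 and 0.00123 without the siRNA 28 or the siRNA 30 library. When an NRF2 siRNA library is left out, the controls alone give the spread, which then leaves out the difference between the siRNAs. Under these omissions the genes called over the whole table went from 128 to 1532 or 1420 in H2023, and in H460 from 1879 to 3128 without siRNA 28, so calls that members gain in this way are given as values and not read as changes. Without the first or the second control library, with the one left taken to vary like the NRF2 siRNA libraries, the adjusted p rose to 0.0904 and 0.105 in A549 and to 0.0838 and 0.0789 in H460 (limma).

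**Figure D1:**
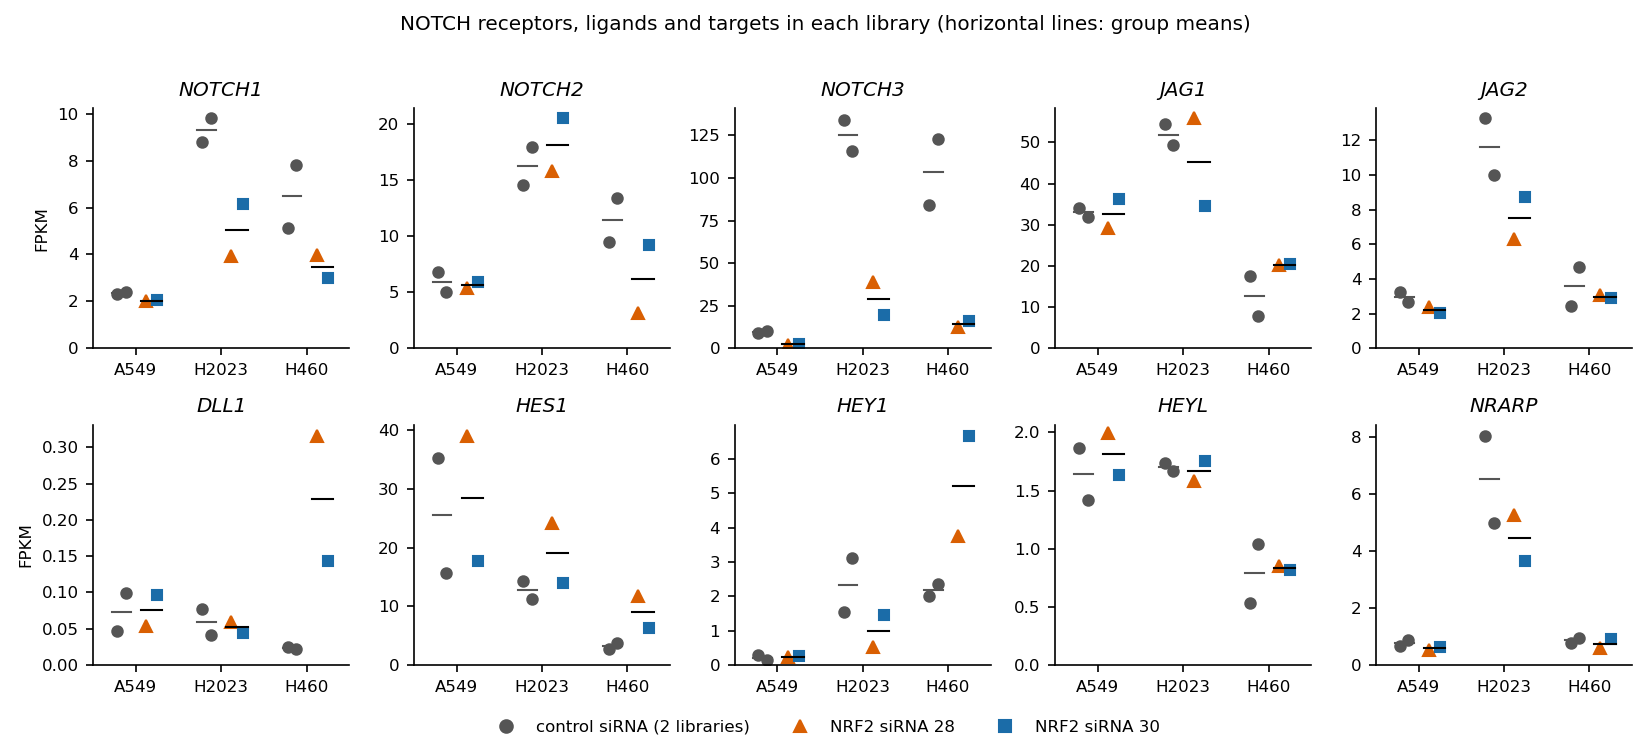
FPKM of the 10 genes (y axis, linear and different in each panel) in the 12 libraries, by cell line, with circles for control siRNA, triangles for NRF2 siRNA 28, squares for NRF2 siRNA 30 and horizontal lines at group means. Within each line NOTCH3 was lower with NRF2 siRNA, with means of 2.32 and 9.82 FPKM (NRF2 and control siRNA) in A549, 29.2 and 125 in H2023, and 14.3 and 103 in H460. HES1 with siRNA 28 lay above both control libraries in every line. With siRNA 30 it lay between them in A549 and H2023 and above them in H460.

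NOTCH1 (ENSG00000148400.9, chromosome 9, 139388885 to 139440500, minus strand, GRCh37) moved much less. It was at 2.304 and 2.42 FPKM in A549 control libraries and 2.002 and 2.07 FPKM with siRNA 28 and siRNA 30. In H2023 it was at 8.80 and 9.82 FPKM with control siRNA, 3.95 FPKM with siRNA 28 and 6.13 FPKM with siRNA 30. H460 gave 5.14 and 7.80 FPKM with control siRNA, and 3.97 and 3.01 FPKM with siRNA 28 and siRNA 30. All 6 NRF2 siRNA libraries lay below both control libraries of their line. NOTCH1 and NOTCH3 were the 2 members of the 6 tested in all lines for which this held, and the same was true of 7.2% of all 11571 genes tested in all lines. NOTCH1 changed by -0.15 ± 0.16 in A549, by -0.79 ± 0.26 in H2023 and by -0.72 ± 0.31 in H460 (log2(FPKM + 1), SE), and adjusted p was 0.743, 0.229 and 0.156 (limma). Without the siRNA 30 library, with the spread from the controls alone, NOTCH1 was at -1.06 in H2023 (adjusted p = 0.0246, limma).

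NOTCH2, which shares long stretches with its NOTCH2NL copies so that its values are uncertain, had overlapping groups in A549 and H2023. In H460 it was at 9.54 and 13.4 FPKM with control siRNA, 3.19 FPKM with siRNA 28 and 9.23 FPKM with siRNA 30, so that siRNA 30 lay just under the lower control library. Its change in H460 was -0.91 with a 95% interval from -2.01 to 0.18 on the log2(FPKM + 1) scale (adjusted p = 0.214, limma). It was -1.56 without the siRNA 30 library, with the spread from the controls alone (adjusted p = 0.0233, limma), and -0.27 without the siRNA 28 library.

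With NOTCH3 lower, the receptor transcripts had another makeup. With control siRNA, NOTCH3 made up 49.5% and 57.9% of the FPKM sum of NOTCH1 to NOTCH4 in A549, 84.8% and 80.4% in H2023, and 85.1% and 85.0% in H460. With siRNA 28 and siRNA 30 its share was 21.5% and 22.7% in A549, 65.9% and 42.2% in H2023, and 62.6% and 54.9% in H460. With NRF2 siRNA, NOTCH3 was still the most abundant receptor in H460 and, for siRNA 28, in H2023, while NOTCH2 was the most abundant one in A549 and, at 44.1% of the sum, in H2023 with siRNA 30. The FPKM sum of the other receptors was 9.33 and 7.64 with control siRNA and 8.13 and 8.21 with NRF2 siRNA in A549, and the groups overlapped. It was 23.98 and 28.2 against 20.0 and 26.9 in H2023, where they overlapped too, and 14.7 and 21.7 against 7.37 and 13.3 in H460, where they did not. The shares hold NOTCH3 itself and were not tested.

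**Figure D2:**
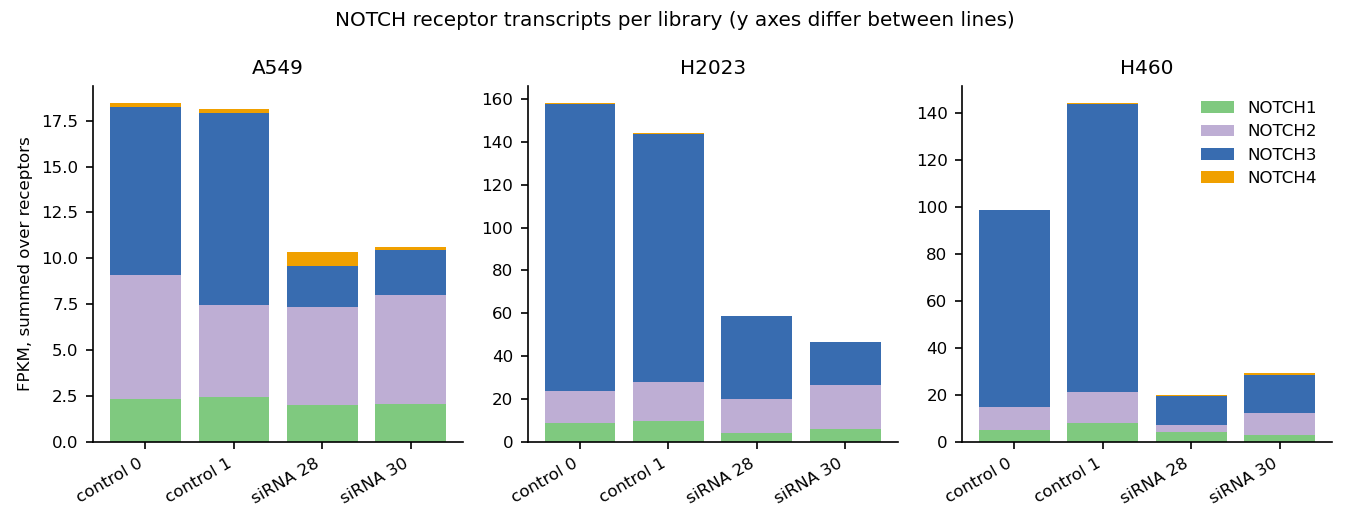
FPKM of NOTCH1, NOTCH2, NOTCH3 and NOTCH4 stacked for each library (y axis, linear from 0, with a range of its own for each line), with the control libraries and the libraries of siRNA 28 and siRNA 30 on the x axis. The sum went from 158 and 144 FPKM to 58.7 and 46.6 FPKM in H2023 and from 98.6 and 144 FPKM to 19.7 and 29.4 FPKM in H460, and the NOTCH3 segment became smaller in all 6 NRF2 siRNA libraries.

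JAG1 and JAG2 did not pass the test in any line, and DLL1 was too low to be tested. JAG1 (ENSG00000101384.7, chromosome 20, 10618332 to 10654647, minus strand, GRCh37) made up between 53.4% and 86.5% of the FPKM sum of JAG1, JAG2, DLL1, DLL3 and DLL4. In A549 it was at 34.1 and 32.0 FPKM with control siRNA, 29.1 FPKM with siRNA 28 and 36.2 FPKM with siRNA 30, and in H2023 at 54.4 and 49.4, 55.8 and 34.5 FPKM. H460 had 17.6 and 7.91 FPKM with control siRNA, which are far apart, and 20.2 and 20.5 FPKM with NRF2 siRNA, above both. The 95% interval of its change was -0.42 to 0.37 in A549, -0.88 to 0.41 in H2023 and -0.17 to 1.63 in H460 (log2(FPKM + 1)).

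JAG2 was at 2.71 to 3.27 FPKM in A549 control libraries and at 2.38 and 2.04 FPKM with siRNA 28 and siRNA 30. In H2023 it was at 13.3 and 10.0 FPKM against 6.30 and 8.75 FPKM. Both NRF2 siRNA libraries were thus below the controls in these lines, while the groups overlapped in H460. Its change was -0.31 ± 0.17, -0.57 ± 0.25 and -0.16 ± 0.33 in A549, H2023 and H460 (log2(FPKM + 1), SE), with adjusted p = 0.515, 0.335 and 0.774 in limma. DLL1 did not exceed 0.316 FPKM in any of the 12 libraries, which left it untested. Its highest values, 0.316 and 0.143 FPKM, were those of siRNA 28 and siRNA 30 in H460, where the control libraries had 0.0247 and 0.0218 FPKM.

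**Figure D3:**
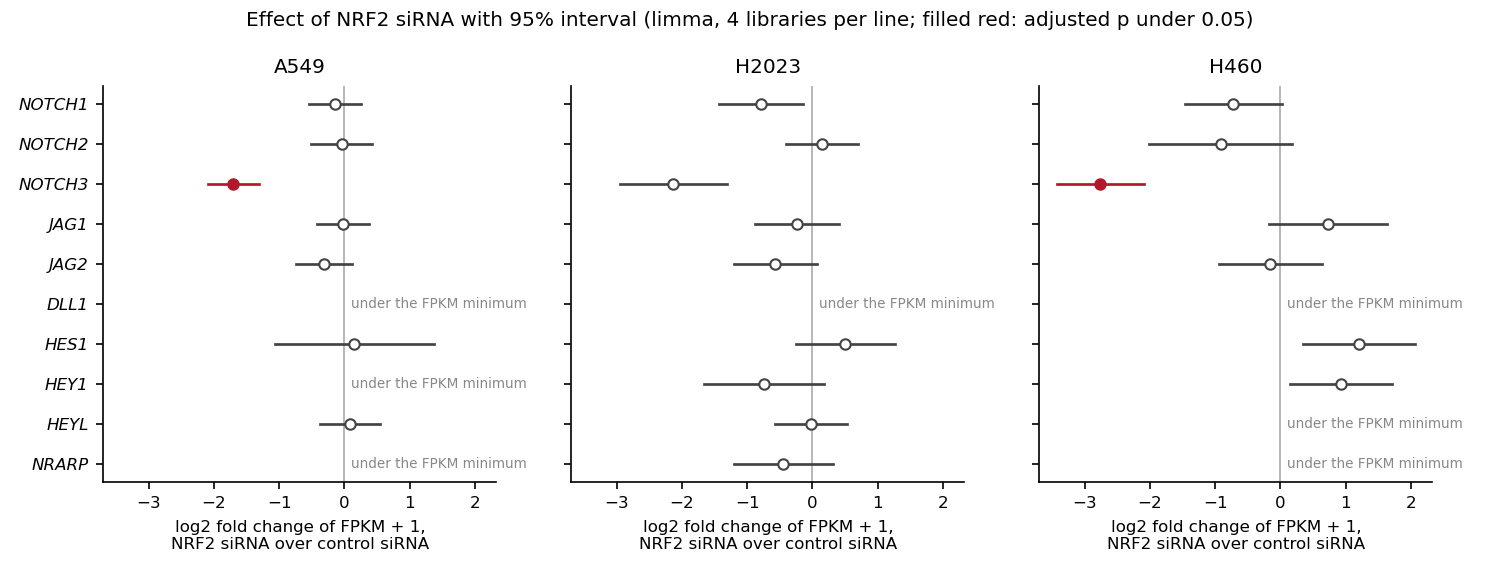
Change with NRF2 siRNA for the 10 genes in each line (x axis, log2 fold change of FPKM + 1, points) with the 95% interval (bars) from limma on 4 libraries per line, where filled red points mark an adjusted p under 0.05. NOTCH3 lay furthest to the left in all 3 lines, at -1.70, -2.13 and -2.76, and the intervals of HES1 and HEY1 in H460 lay above 0 without passing the adjusted threshold.

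The targets differed in direction, and none of them passed the test in any line with all libraries fitted and no replicate block. HES1 (ENSG00000114315.3, chromosome 3, 193853937 to 193856521, plus strand, GRCh37), whose promoter is printed above, was at 35.3 and 15.7 FPKM in A549 control libraries, 39.1 FPKM with siRNA 28 and 17.7 FPKM with siRNA 30. In H2023 it was at 14.3 and 11.3 FPKM with control siRNA, 24.2 FPKM with siRNA 28 and 13.9 FPKM with siRNA 30. In H460 it was at 2.69 and 3.82 FPKM with control siRNA, 11.8 FPKM with siRNA 28 and 6.35 FPKM with siRNA 30. The groups overlapped in A549 and H2023, and in H460 both NRF2 siRNA libraries lay above both control libraries, at 361% and 195% of the control mean. HES1 changed by 0.15 ± 0.49 in A549, by 0.50 ± 0.30 in H2023 and by 1.20 ± 0.35 in H460 (log2(FPKM + 1), SE), with adjusted p = 0.924, 0.463 and 0.0696 in limma. Without the siRNA 30 library, with the spread from the controls alone, HES1 was at 1.60 in H460 (adjusted p = 0.0224, limma) and 0.88 in H2023 (adjusted p = 0.0348, limma), and without the siRNA 28 library it was at 0.80 and 0.13. In A549 its sign turned without the second control library (-0.41) or the siRNA 28 library (-0.40).

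HEY1 was lower with NRF2 siRNA in H2023 and higher in H460, and neither change passed the test. The share of all genes that separate so in a single line was not counted. In A549 HEY1 was at most 0.299 FPKM and was not tested. H2023 had 1.54 and 3.12 FPKM with control siRNA, 0.533 FPKM with siRNA 28 and 1.44 FPKM with siRNA 30, so both NRF2 siRNA libraries were lower. H460 had 2.02 and 2.35 FPKM with control siRNA, 3.77 FPKM with siRNA 28 and 6.66 FPKM with siRNA 30, so both were higher. The change was -0.74 ± 0.37 in H2023 (adjusted p = 0.378, limma) and 0.93 ± 0.32 in H460 (adjusted p = 0.1003, limma), on the log2(FPKM + 1) scale with SE. In H460 HEY1 was at 1.27 without the siRNA 28 library, with the spread from the controls alone (adjusted p = 0.0282, limma), and at 0.58 without the siRNA 30 library, and in H2023 it lay between -1.09 and -0.39 when single libraries were left out. The difference between the 2 lines, H460 minus H2023, was 1.67 with a 95% interval from 0.50 to 2.84 (unadjusted p = 0.0109 and adjusted p = 0.178, limma on the 8 libraries), a comparison in which 0.0161% of all genes passed. HEY1 was picked for this comparison after its values were seen.

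HEYL was low and nearly level. It was between 1.42 and 1.99 FPKM in the 4 libraries of A549 and between 1.58 and 1.75 FPKM in those of H2023, with a 95% interval of the change from -0.37 to 0.55 and from -0.57 to 0.53 (log2(FPKM + 1)). The groups overlapped in both lines, and also in H460, where HEYL was at most 1.04 FPKM and was not tested. NRARP passed the expression minimum in H2023 only, with 8.03 and 4.96 FPKM in control libraries, 5.24 FPKM with siRNA 28 and 3.63 FPKM with siRNA 30, and a change of -0.45 ± 0.30 (log2(FPKM + 1), SE, adjusted p = 0.509, limma). It was at most 0.953 FPKM in A549 and H460.

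The targets were then set beside NOTCH3 by taking log2(FPKM + 1) of the target minus that of NOTCH3 in each library. With NRF2 siRNA this difference was higher by 2.82 for HES1, 2.27 for HEY1, 2.24 for HEYL and 1.96 for NRARP as a mean of the 3 lines, with p = 0.00926 for each in a two-sided exact permutation test over all ways of relabelling libraries within lines, the smallest p this design can give. The change of NOTCH3 is part of each of these differences, and 97.9% of the other 11570 genes tested in all lines also rose against NOTCH3 with no overlap in any line, so nothing about the targets is read from this p. In 9 of the 12 pairs of target and line, the target started so low that even a fall to 0 FPKM would have been smaller than the NOTCH3 change on this scale. This was so for HEYL and HEY1 in every line, with a largest possible fall between 0.82 and 1.44 for HEYL and between 0.28 and 1.69 for HEY1, for NRARP in A549 and H460 (0.82 and 0.90) and for HES1 in H460 (2.08). The remaining pairs were HES1 in A549 and H2023 and NRARP in H2023, with room for a fall of 4.62, 3.77 and 2.88, and the changes given above for them were 0.15, 0.50 and -0.45, beside -1.70, -2.13 and -2.13 for NOTCH3.

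**Figure D4:**
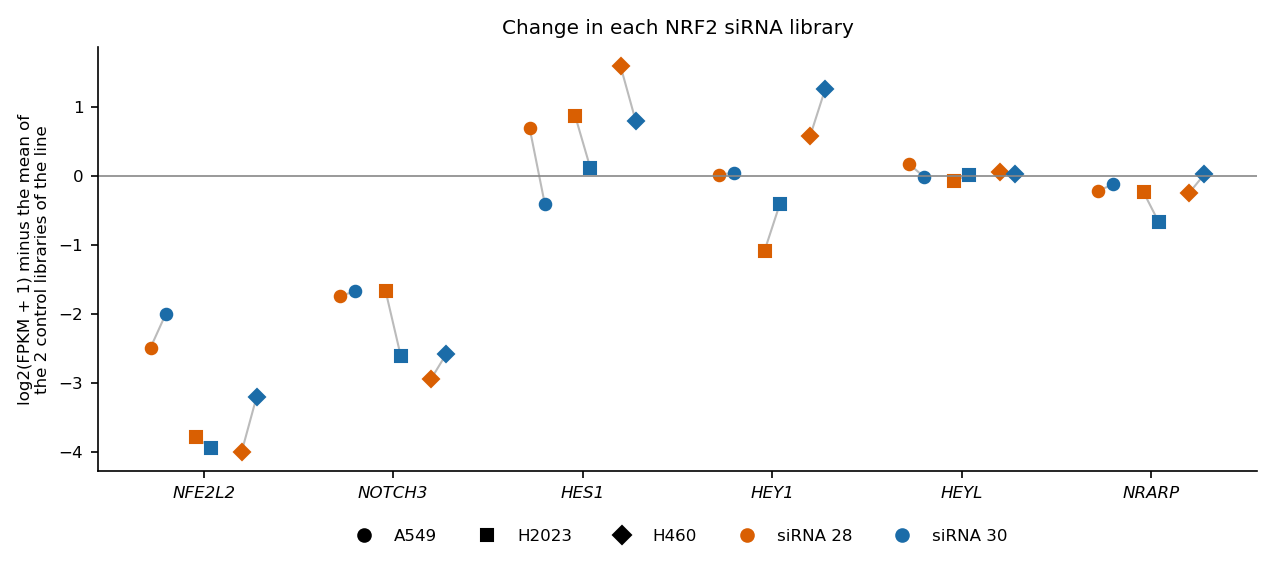
Change in each NRF2 siRNA library for NFE2L2, NOTCH3 and the 4 targets (y axis, log2(FPKM + 1) minus the mean of the 2 control libraries of the line), with shape for the line and colour for the siRNA. NOTCH3 lay between -1.66 and -2.94 in all 6 libraries, HES1 between -0.40 and 1.60, and HEYL between -0.07 and 0.18, and for HES1 siRNA 28 lay above siRNA 30 in every line.

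The siRNAs 28 and 30 were compared over the 3 lines. No gene passed this test in limma, 0% of 15716 genes tested, with 2853 genes under an unadjusted p of 0.05. NOTCH3 was 0.17 higher with siRNA 28 than with siRNA 30 with a 95% interval from -0.52 to 0.85 (log2(FPKM + 1)). HES1 was 0.88 higher with siRNA 28, with a 95% interval from 0.52 to 1.24, and higher in 3 of 3 lines (unadjusted p = 0.00116 and adjusted p = 0.126, limma). The differences of HES1 between siRNA 28 and siRNA 30 were 1.10 in A549, 0.75 in H2023 and 0.79 in H460 on this scale. The library of siRNA 28 carries number 0 and that of siRNA 30 number 1 in every line. For HES1, control library 0 minus control library 1 was 1.12 in A549, and it was 0.31 in H2023 and -0.39 in H460, so the A549 controls differed by as much as the siRNAs did. The remaining 7 members tested had unadjusted p-values between 0.0621 and 0.909 in limma.

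Over the 3 lines together, NOTCH3 and NOTCH1 were lower. HES1 did not pass, except with a replicate block, for pairs that the labels do not give (adjusted p = 0.0273, limma). In the fit of all 12 libraries the average change of NOTCH3 was -2.20 ± 0.17 (log2(FPKM + 1), SE, adjusted p = 2.82e-05, limma) and that of NOTCH1 was -0.55 ± 0.14 (adjusted p = 0.0141, limma). These were 2 of 6 members tested, and both were lower, while 14.5% of all genes tested were called lower, 15.2% higher and 29.7% in either direction, so the count among the members was near the background. This fit takes the spread between libraries to be the same in all 3 lines. HES1 changed by 0.62 with a 95% interval from 0.03 to 1.21 (adjusted p = 0.104, limma), JAG2 by -0.35 (adjusted p = 0.110, limma), and NOTCH2 and JAG1 by -0.27 and 0.16. With 1 library left out, JAG2 passed without the first H460 control library (-0.47, adjusted p = 0.0370, limma) and NOTCH2 without the H460 siRNA 30 library (-0.49, adjusted p = 0.0276, limma). The difference in effect between the lines passed for none of the 6 members in limma, where 2.51% of all genes tested did. None of the 6 was under an unadjusted p of 0.05 in limma, against 21.2% of all genes tested. For NOTCH3 the adjusted p of that difference was 0.294 (limma), so the deeper fall in H460 was not shown to differ from that in A549 or H2023.

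With control siRNA the genes were ordered by level within each line. The order in A549 is not compared with that in the other lines, since its library protocol was different. JAG1 and HES1 led in A549, at 33.0 ± 1.53 and 25.5 ± 13.9 FPKM (SD, n = 2), with overlapping ranges, followed by NOTCH3 at 9.82 ± 0.953, NOTCH2, JAG2, NOTCH1, HEYL, NRARP, HEY1 and DLL1. NOTCH3 led in H2023 at 125 ± 12.9 FPKM (SD, n = 2), ahead of JAG1, NOTCH2, HES1, JAG2, NOTCH1, NRARP, HEY1, HEYL and DLL1, and the ranges of HES1 and JAG2 and of HEY1 and HEYL overlapped. In H460 NOTCH3 also led at 103 ± 27.4 FPKM (SD, n = 2), ahead of JAG1, NOTCH2, NOTCH1, JAG2, HES1, HEY1, NRARP, HEYL and DLL1, and the ranges of JAG1 and NOTCH2, of JAG2 and HES1, and of NRARP and HEYL overlapped.

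H2023 and H460 share a library protocol and were compared in their control libraries. Of 9 members tested, 4 were higher in H2023, and none lower, where 24.2% of all genes tested were called higher, 24.6% lower and 48.8% in either direction. These were JAG1, by 2.04 ± 0.34 (adjusted p = 0.00484, limma), NRARP, by 1.98 ± 0.25 (adjusted p = 0.00207, limma), HES1, by 1.70 ± 0.23 (adjusted p = 0.00231, limma), and JAG2, by 1.497 ± 0.29 (adjusted p = 0.00854, limma), all as differences in log2(FPKM + 1) with SE. With no filter on low values the calls of JAG1 and JAG2 were lost (adjusted p = 0.0810 and 0.0888, limma). NOTCH3 differed by 0.29 with a 95% interval from -0.21 to 0.80 (adjusted p = 0.284, limma). The count of members called was 3 without either H2023 control library and 8 without the second H460 control library, where the single library left is taken to vary like the other group.

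The wider pathway was followed in a list of 62 other genes in 8 roles. In A549 50 of them were tested and none passed in limma, with 9 under an unadjusted p of 0.05, as were 13.3% of all genes tested. In H2023 1 of 52 passed, FURIN, which was higher, where 0.327% of all genes tested were called higher and 0.583% lower. In H460 7 of 50 passed, 6 higher and 1 lower, against the background of 7.12% and 6.86% of all genes given above. In A549, H2023 and H460 the tested list had a median change of 0.12, 0.08 and 0.33, and that of all genes tested 0.02, 0.02 and -0.01 (log2(FPKM + 1)).

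Of the 9 processing genes, all tested in H460, 3 were called there, all higher, where 7.12% of all genes tested were called higher. FURIN, the protease that cleaves the NOTCH precursor on its way to the surface, was at 22.5 and 17.9 FPKM with control siRNA in H460, 87.1 FPKM with siRNA 28 and 136 FPKM with siRNA 30, a change of 2.38 ± 0.28 (log2(FPKM + 1), SE, adjusted p = 0.0141, limma). In H2023 it was at 23.2 and 23.3 FPKM against 52.3 and 60.4 FPKM, a change of 1.24 ± 0.16 (adjusted p = 0.04998, limma), which lay just inside the threshold and was lost with a pseudocount of 0.1 (adjusted p = 0.0565, limma), with median ratio scaling (0.0507), with no trend (0.0804), with no filter on low values (0.169) and without either control library (adjusted p = 0.419 and 0.380, limma). FURIN in A549 was at 9.67 and 6.79 FPKM against 18.6 and 13.2 FPKM (adjusted p = 0.243, limma). All 6 NRF2 siRNA libraries were thus above the controls of their line, as for 8.18% of all genes tested in all lines.

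NCSTN and APH1B encode subunits of gamma-secretase. NCSTN rose in H460 from 145 and 135 FPKM to 266 FPKM with siRNA 28 and 351 FPKM with siRNA 30 (1.12 ± 0.24, adjusted p = 0.0338, limma), and APH1B from 3.21 and 1.98 FPKM to 8.88 and 8.22 FPKM (1.43 ± 0.29, adjusted p = 0.0314, limma). On average over the lines 12 of 48 genes of the list were called, 7 higher and 5 lower, against 29.7% of all genes tested. Among them were 5 of the 9 processing genes, 4 of them higher, where 15.2% of all genes tested were called higher and 14.5% lower. The others called were DNER, DTX3, MYC, NUMBL, KAT2A, HDAC2 and TLE1. By sign alone, the 9 processing genes were 8 higher and 1 lower in A549, 4 and 5 in H2023, and 7 and 2 in H460. Of the 5 processing genes called, PSEN2 and ADAM17 were named after their values were seen. PSEN2, a catalytic subunit of gamma-secretase, was higher by 0.39 ± 0.11 (adjusted p = 0.0244, limma), and ADAM17, a sheddase, changed by -0.80 ± 0.22 (adjusted p = 0.0221, limma). When single libraries were left out, the adjusted p rose to at most 0.0718 for PSEN2 and 0.0624 for ADAM17, and that of ADAM17 was 0.108 with no filter on low values (limma). ADAM17 in H460 was at 31.8 and 26.0 FPKM with control siRNA, 9.89 FPKM with siRNA 28 and 29.0 FPKM with siRNA 30, so that siRNA 30 lay between the controls.

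The other genes called in H460 were a ligand-like protein, a turnover gene and a pair of targets. DNER, a membrane protein that can bind NOTCH, rose from 52.1 and 37.1 FPKM to 123 and 104 FPKM (1.34 ± 0.25, adjusted p = 0.0267, limma), and DTX3, a ubiquitin ligase of the deltex family, from 6.85 and 7.17 FPKM to 26.7 and 19.4 FPKM (1.57 ± 0.26, adjusted p = 0.0222, limma). CDKN1A, which encodes the cell cycle inhibitor p21, rose from 23.9 and 21.0 FPKM to 130 FPKM with siRNA 28 and 57.1 FPKM with siRNA 30 (1.90 ± 0.39, adjusted p = 0.0314, limma). MYC, a driver of growth and a known NOTCH target in some cells, fell from 495 and 299 FPKM to 35.2 and 70.1 FPKM (-2.93 ± 0.40, adjusted p = 0.0168, limma). The calls of all 7 genes in H460 were lost without either control library of that line, with adjusted p between 0.0729 (MYC) and 0.236 (NCSTN) in limma and the direction kept. MYC was the only gene of the list called for a difference in effect between the lines (adjusted p = 0.0327, limma). It was 1 of 48 tested, against 2.51% of all genes tested, so this count was near the background. The change of MYC was -0.50 ± 0.17 in A549 and -0.53 ± 0.18 in H2023. The adjusted p of this difference lay between 0.0152 and 0.141 when single libraries were left out (limma), and it was above 0.05 without any one of the A549 libraries, the H2023 control libraries or the first H460 control library, and with no filter on low values (adjusted p = 0.0815, limma).

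**Figure D5:**
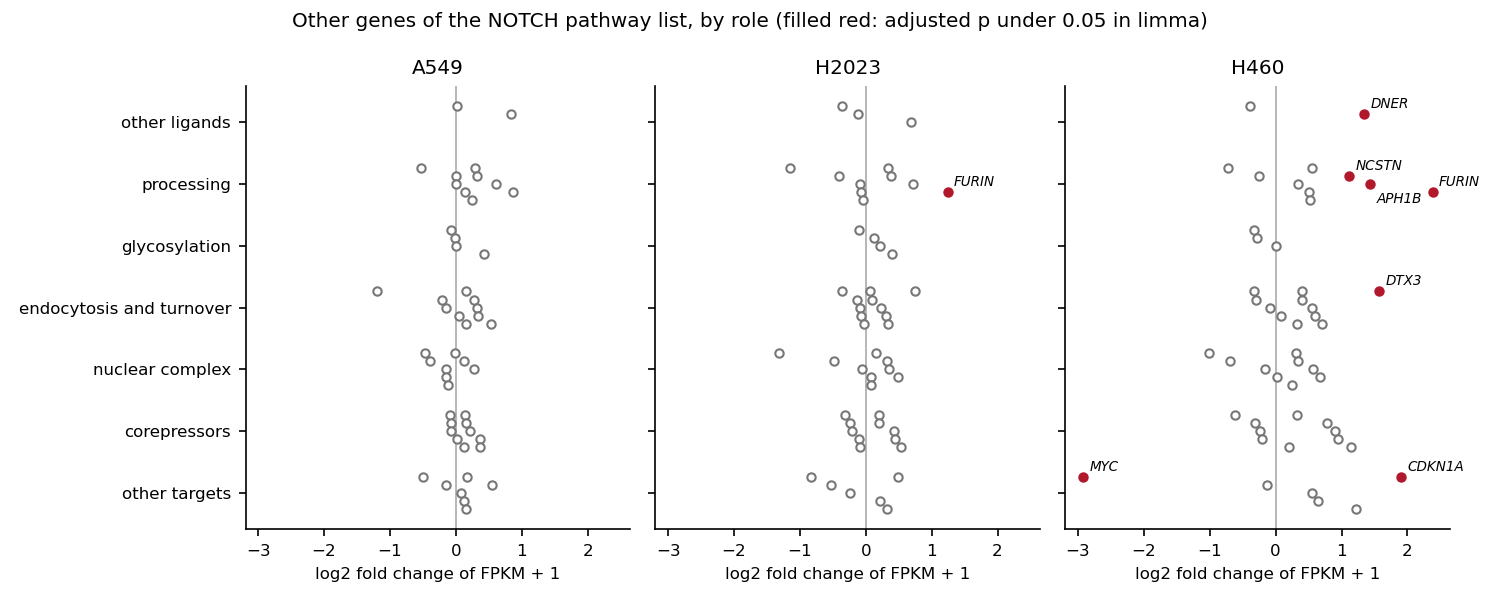
Change with NRF2 siRNA in each line for the genes of the wider pathway list that passed the expression minimum (x axis, log2 fold change of FPKM + 1), by role (y axis), where filled red points with a name mark an adjusted p under 0.05 in limma. No gene of the list is marked in A549, FURIN in H2023 and 7 genes in H460, with MYC at -2.93 and FURIN at 2.38 as the lowest and the highest.

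Across the 6 NRF2 siRNA libraries, the genes whose change was most like that of NOTCH3 were sought among 11570 genes, by the root mean square of the difference in change, in log2(FPKM + 1), from NOTCH3. They were NEIL3, a DNA glycosylase, at 0.307, PGD, an enzyme of the pentose phosphate pathway, at 0.365, AKR1C3, an aldo-keto reductase, at 0.436, ME1, malic enzyme, at 0.471, and GCLC, the catalytic subunit for glutathione synthesis, at 0.5001. NOTCH1 ranked 944 and HES1 10780 in this order, with a distance of 1.73 and 2.99. The genes most like HES1 were THRA, a thyroid hormone receptor, at 0.164, the pseudogene PDCD6P1 at 0.211 and the semaphorin SEMA4F at 0.224. These distances are a description, since the changes of a line share its control libraries.

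The gene next to NOTCH3 and CEBPB were looked at last. EPHX3, on the far side of the printed NOTCH3 upstream region, reached no more than 0.173 FPKM and thus stayed untested. CEBPB, a transcription factor that the study examined together with NRF2, fell in all 3 lines, from 59.5 and 58.2 FPKM to 18.1 and 19.4 FPKM in A549, from 128 and 136 FPKM to 49.9 and 35.3 FPKM in H2023, and from 92.7 and 67.0 FPKM to 37.3 and 19.7 FPKM in H460. Its change was -1.60 ± 0.13, -1.63 ± 0.21 and -1.503 ± 0.35 (log2(FPKM + 1), SE), with adjusted p = 0.00946, 0.0474 and 0.0397 in limma. Without either control library of a line the CEBPB call was lost there, with adjusted p between 0.0596 and 0.307 (limma), and without the filter on low values in every line (adjusted p between 0.118 and 0.232, limma). It was also lost in H460 after scaling without mitochondrial transcripts (-1.35, adjusted p = 0.0559, limma), and in H2023 with a pseudocount of 0.1 or with no trend (adjusted p = 0.0550 and 0.0756, limma).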

How the data were processed

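Total RNA of 12 libraries was sequenced with strand-specific paired reads. The authors deposited 1 table of FPKM values per library with 57815 genes. The study's methods name hg19, TopHat and Cufflinks for these values, whereas the submitters' processing notes list STAR 2.5.3a, cutadapt 1.15, Cuffnorm, HTSeq and DESeq2 with the builds hg19 and GRCh37.p13, and which of these made the tables is not settled by the sources used here. FPKM are scaled by length and library size, and estimates of this kind can split reads between near-identical genes. The deposited tables of DESeq2 comparisons (mean counts, fold changes, p-values) were not used.

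Values under 1e-06 FPKM were set to 0. Identifiers were matched to GENCODE lifted to GRCh37 (96.1% matched). Within each line, limma 3.58.1 in R 4.3.3 was fitted to log2(FPKM + 1) of 4 libraries with the prior variance following mean level, for genes with FPKM of at least 1 in at least 2 of 4 libraries. P-values were adjusted by Benjamini-Hochberg, and 0.05 was the threshold. Fold changes on this scale understate changes of low genes. The average effect and the difference between lines came from 1 fit of 12 libraries and 6 group means, for genes with FPKM of at least 1 in at least 2 libraries of every line. The siRNAs were compared in 6 libraries with line as covariate. Targets were compared with NOTCH3 by an exact permutation test, with p-values not adjusted over the 4 targets. Scripts were tested on simulated data. Tables and plots were made in Python 3.11.15 with matplotlib 3.10.9, pandas 2.3.3 and numpy 2.4.6.

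The 10 genes, the pathway list and the tests were chosen with earlier results of these data known. Named beside them were NFE2L2, CEBPB and EPHX3, listed genes past the threshold in a line, and the 5 and 3 genes most like NOTCH3 and HES1. PSEN2 and ADAM17 fell outside this rule. Other pseudocounts, filters, scalings and fits, and the omission of each library, were tried. P-values measure the spread between 2 libraries per group, which for NRF2 siRNA includes that between siRNAs. Positions are those of whole genes.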

Additional observations from a re-analysis of the deposited data

Results flagged for a closer look

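The effect of NRF2 siRNA on MYC was called different between the lines (adjusted p = 0.0327, limma), as for 2.51% of all genes tested. This adjusted p was 0.0152 to 0.141 when single libraries were left out, 0.0815 with no filter on low values and 0.0703 with a replicate block (limma). MYC went from 495 and 299 FPKM to 35.2 and 70.1 FPKM in H460, from 81.5 and 61.5 FPKM to 50.5 and 49.2 FPKM in A549, and from 67.7 and 72.9 FPKM to 53.7 and 43.3 FPKM in H2023. With control siRNA, H2023 minus H460 was -2.44 ± 0.25 for MYC on the log2(FPKM + 1) scale (adjusted p = 0.000925, limma).

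HEY1, whose change passed in neither line (adjusted p = 0.378 and 0.1003, limma), was lower in H2023 (-0.74 on the log2(FPKM + 1) scale) and higher in H460 (0.93), in both NRF2 siRNA libraries of each line. It was outside the test over 3 lines because of its low level in A549, and in the 8 libraries of H2023 and H460 the difference had an adjusted p of 0.178 (limma). With 2 libraries per group, no single library could be tested for standing apart.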

How the results depend on the processing

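Of 1126 alternative values of 96 results, 943 kept their direction and their side of the threshold, or moved a count by at most 1.5 times. With no filter on low values, no gene passed in A549, H2023 or H460 (0, 0 and 0 genes and 0, 0 and 0 members, 36052 or fewer genes tested), NOTCH3 kept its change in A549 (-1.70) and H460 (-2.76) with adjusted p = 0.137 and 0.110 in limma, 843 genes differed between lines, and 2 members passed between H2023 and H460. In H2023, 79 genes passed with no trend. With 1 fit of all 12 libraries 455 genes passed in H2023 and 3850 in H460, with 1 member (NOTCH3, -2.13, adjusted p = 0.00338, limma) and 2 members (NOTCH3 and NOTCH1). In the fit of the H2023 and H460 libraries only, chosen after seeing the data, 2 genes differed between lines. Scaling without mitochondrial transcripts moved the median of all genes in H460 from -0.01 to 0.12 (log2) and the calls there from 922 lower and 957 higher to 584 and 1189, and HEYL in H2023 turned to 0.040. With a pseudocount of 0.1, NRARP turned to -0.087 between siRNA 28 and siRNA 30. The cause was not tested.

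The replicate numbers 0 and 1 are shared by the groups of a line, and same-numbered deviations were correlated at -0.03 for A549, 0.31 for H2023 and 0.16 for H460. The labels do not say that a number marks a shared day or batch, and the correlation was not positive in every line, so the libraries were not treated as pairs. With a replicate block, 711 genes passed in H2023, 3177 in H460 and 76 between lines. NOTCH3 passed in H2023 (-2.13, adjusted p = 0.00558, limma) as 1 member, 2 members passed in H460 (NOTCH3 and HES1), and HES1 passed on average (0.62, adjusted p = 0.0273, limma).

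When single libraries were left out, genes called ranged from 41 to 272 in A549, 0 to 1532 in H2023, 0 to 3128 in H460, 3 to 770 between lines, 0 to 93 between siRNAs and 3223 to 6352 between H2023 and H460, and members called from 0 to 1, 0 to 3, 0 to 3 and, between H2023 and H460, 3 to 8. NOTCH3 ranged from -1.79 to -1.61 in A549, -2.60 to -1.66 in H2023 and -3.03 to -2.49 in H460. Ranges that crossed 0 were -0.23 to 0.14 (NOTCH2), -0.18 to 0.13 (JAG1), -0.41 to 0.71 (HES1) and -0.032 to 0.21 (HEYL) in A549, -0.033 to 0.32 (NOTCH2), -0.57 to 0.10 (JAG1) and -0.067 to 0.024 (HEYL) in H2023, -0.51 to 0.20 (JAG2) in H460 and -0.019 to 0.33 (JAG1) on average. Between siRNAs they were -0.28 to 0.14 (NOTCH1), -0.22 to 0.43 (NOTCH3), -0.16 to 0.33 (JAG1), -0.17 to 0.11 (JAG2) and -0.033 to 0.10 (HEYL), and between H2023 and H460 -0.33 to 0.37 (HEY1). Members at or under 1 FPKM, and a depth that was not looked at, limit what could be seen of DLL1, HEY1, HEYL and NRARP.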
